A study of Mus musculus with 8 samples.

Results

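Genes that deal with reactive aldehydes and oxidants in liver were followed: Aldh1b1, Ttpa, Txn1 and Ptgr1, which are 4 of the 55416 rows of the deposited count table. They were chosen by symbol for their known roles. All lie in the first part of chromosome 4, in a stretch whose row names were taken as usable, with less certainty for Txn1 and Ptgr1. The 8 libraries came from liver of mice fed the MCD diet. In this field that diet lacks methionine and choline and is used to bring on fatty liver with inflammation. The 4 libraries of one group were from Sost-/- mice and the 4 of the other from SostPB/- mice. Both groups thus carried a Sost minus allele, and the diet was the same in both. Sost encodes sclerostin, a secreted Wnt inhibitor, and the series concerns its overexpression in steatohepatitis. The labels do not say what the PB allele is, which group overexpresses Sost, or the sex and age of the mice, so the groups are compared by name. The samples are labelled as biological replicates, but the labels do not say that each is from a separate mouse. Each sample is called a liver below.

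Peroxidation of membrane lipids releases reactive aldehydes that bind to proteins and DNA. Liver cells limit this by keeping vitamin E in circulation, by holding protein thiols reduced, and by converting the aldehydes into less reactive products. Aldh1b1 is a mitochondrial aldehyde dehydrogenase that oxidises acetaldehyde and other aldehydes to acids. Ptgr1, prostaglandin reductase, saturates the reactive double bond of unsaturated aldehydes and ketones and also inactivates leukotriene B4. Txn1 is the cytosolic thioredoxin, a small disulfide reductase that is recharged with electrons from NADPH. Ttpa, the alpha-tocopherol transfer protein, is made in hepatocytes and passes vitamin E on for export to plasma.

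By GENCODE M21 on GRCm38, all 4 genes are protein coding. Ttpa (ENSMUSG00000073988) lies at chr4:20007938-20030785 on the plus strand and Aldh1b1 (ENSMUSG00000035561) at chr4:45799022-45804604, also plus. Txn1 (ENSMUSG00000028367) lies at chr4:57943373-57956411 and Ptgr1 (ENSMUSG00000028378) at chr4:58965439-58987119, both on the minus strand. No annotated gene overlapped any of the 4 (0 for each). The row of the Txn1 pseudogene Txn-ps1 held 0 counts, but it lies on chromosome 1, outside the stretches whose names were taken as usable. That 0 therefore does not show whether the pseudogene drew reads, and pseudogenes under other kinds of name were not looked for.

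Txn1 and Ptgr1 are commonly described as targets of NRF2, the transcription factor that turns on antioxidant genes. Their promoters are therefore printed with that of Aldh1b1, the 3 of 4 genes matched in RefSeq's promoter table (GRCm38.p6). The bases before the start of transcription are shown 5′ to 3′ on the gene's strand, from chr4:45798772-45799021 (Aldh1b1, plus), chr4:57956412-57956661 (Txn1, minus) and chr4:58987120-58987328 (Ptgr1, minus). The Ptgr1 window has 209 bases, since it was cut where the M21 exon begins, upstream of the RefSeq start of transcription. Capitals mark matches on either strand to 4 motifs: the antioxidant response element core TGACNNNGC, to which NRF2 binds, the TATA box TATAAA, the GC box GGGCGG and the CCAAT box CCAAT.
Aldh1b1: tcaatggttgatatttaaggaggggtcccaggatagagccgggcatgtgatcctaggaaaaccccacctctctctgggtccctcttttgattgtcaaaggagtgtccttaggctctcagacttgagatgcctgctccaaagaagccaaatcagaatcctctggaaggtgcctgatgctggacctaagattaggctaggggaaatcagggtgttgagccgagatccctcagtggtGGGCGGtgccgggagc
Txn1: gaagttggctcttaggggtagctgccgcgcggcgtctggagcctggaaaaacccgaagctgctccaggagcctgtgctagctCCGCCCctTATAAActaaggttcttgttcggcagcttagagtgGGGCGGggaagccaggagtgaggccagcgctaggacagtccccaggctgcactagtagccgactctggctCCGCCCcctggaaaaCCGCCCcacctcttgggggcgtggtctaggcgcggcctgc
Ptgr1: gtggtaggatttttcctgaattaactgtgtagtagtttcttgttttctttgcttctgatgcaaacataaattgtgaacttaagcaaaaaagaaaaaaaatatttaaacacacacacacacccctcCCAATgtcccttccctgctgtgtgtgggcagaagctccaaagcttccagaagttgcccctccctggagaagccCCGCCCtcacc

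The antioxidant response element core had 0 matches in each of the 3 windows. Of all 32851 promoters in the table, 10.2% held it in the 250 bases before the start. In the first 209 of those bases, the window used for Ptgr1, 8.14% held it. The Txn1 window held 4 GC boxes and 1 TATA box, against 1 GC box in Aldh1b1. The Ptgr1 window held 1 GC box and 1 CCAAT box. Over all promoters 32.7% had a GC box and 12.4% a TATA box in 250 bases. In the first 209 bases 26.5% had a GC box and 29.8% a CCAAT box. The marked motifs did not overlap each other. GC content was 53.2% in the Aldh1b1 window, 64.0% in Txn1 and 44.0% in Ptgr1. These are matches of letters and say nothing of what binds there.

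Over much of the deposited table the row names do not belong to the counts, so the rows beside each gene were examined first. The stretch of chromosome 4 from Rps20 to Prpf4 (chr4:3831334-62426990) holds 831 rows, and names past Mrpl50 (from 49512596) were held to be less certain, which touches Txn1 and Ptgr1. Past Mrpl50, the 4 genes listed here as abundant in liver were Abca1, Rad23b, Hsdl2 and Ptbp3. Their rows had mean counts from 9023 (Abca1) to 14235 (Hsdl2, a peroxisomal protein gene that lies past Ptgr1). In the same part, 6 genes listed as known from other tissues had means from 0 to 18.3. Among them were Txndc8, a thioredoxin-like gene of testis next to Txn1, and the muscle kinase Musk, both with 0 counts in every library. Before Mrpl50 the 7 genes listed as abundant in liver, Ttpa included, had means from 809 to 30109. There 2 of 5 genes of other tissues exceeded 100 counts, Gabbr2 with 690.5 and Ccl27a with 207.5. The lists did not overlap in either part, but the gap was narrow before Mrpl50, from 690.5 to 809 counts. Since the stretch and the lists were chosen with these counts known, and Ttpa is itself a list member, these values describe the rows and are no independent support for the names.

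The 3 coding genes on each side of each of the 4 held counts of very different size. Beside Ttpa, the proton pump subunit gene Atp6v0d2 had a mean of 2908 counts, the folate-processing hydrolase gene Ggh 1010 and the ubiquitin ligase gene Wwp1 8193, while Slc7a13, Nkain3 and Prdm13 had 0. Beside Aldh1b1, the adaptor gene Shb had 1129, Dcaf10 1171, the mitochondrial carrier gene Slc25a51 5332 and Stra6l 7849, while Igfbpl1 had 0 and Ccdc180 9.88. On the other side of Txn1 from Txndc8 stood D630039A03Rik with 1327 and a pair of rows named Pakap with 20.8 and 750.3, and beyond Txndc8 came Svep1 with 99.0 and then Musk. Beside Ptgr1, the zinc finger gene Zkscan16 had 0.375, the proteasome adaptor gene Ecpas 5434 and the odorant receptor gene Olfr267 6.63 on one side, and the chaperone gene Dnajc25 1847, Gm20503 0 and the G protein subunit gene Gng10 439.9 on the other.

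**Figure D1:**
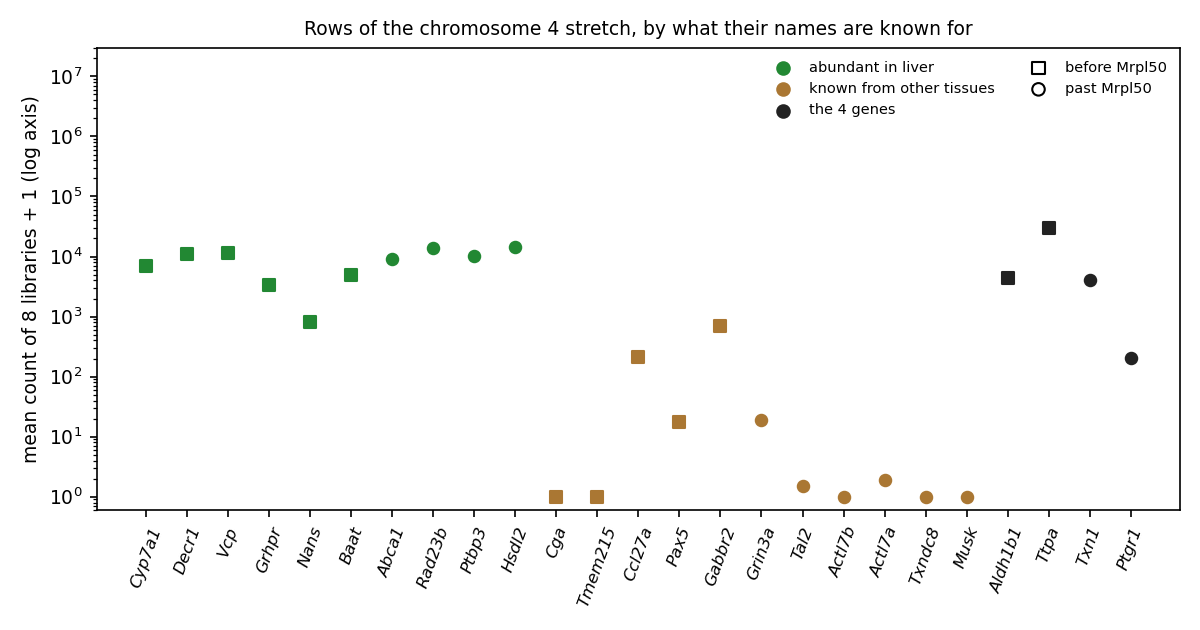
Mean count over 8 libraries plus 1 (log axis) for rows of the chromosome 4 stretch, coloured by the list the gene was put in. Squares are rows before Mrpl50 and circles rows past it. Past Mrpl50 the genes listed as abundant in liver start at 9023 counts and those listed for other tissues end at 18.3. Txn1 has 4102 and Ptgr1 200.3.

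The libraries held 9578086 to 14932773 counts, and mitochondrial rows took 47.4% to 59.2% of them in Sost-/- and 54.7% to 64.3% in SostPB/-. The row named Sost, on chromosome 11, held 0 counts in all 8 libraries but lies where names and counts do not belong together, so the altered gene is not analysed here. Of the hepatocyte markers listed, only Cyp7a1 and Baat lie in readable stretches, and both were present in all libraries. The rows named for the other hepatocyte markers lie where names and counts do not belong together, so they were not read. Cyp7a1 and Baat had a summed level of 719 to 1537 CPM (counts scaled by TMM to equal library sizes) in Sost-/- and 726 to 1639 in SostPB/-. The 5 readable markers of stellate, endothelial and B cells (Col1a2, Col15a1, Svep1, Wnt2 and Pax5) summed to 106 to 205 CPM in Sost-/- and 119 to 186 CPM in SostPB/-. Most of this was Col1a2, with means of 108 and 127 CPM, so the sums say little of endothelial and B cells. The endothelial marker Wnt2 averaged 8.95 and 4.08 CPM (log2 fold change -1.13, SE 0.74, edgeR adjusted p = 0.924) and was at 0 in 1 SostPB/- library. In whole liver, fewer cells of a type and less RNA per cell cannot be told apart.

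None of the 4 genes passed edgeR's quasi-likelihood test between the genotypes. Of 10020 rows tested, 0 passed an adjusted p of 0.05, which is 0%, so the 4 genes match the background. At an unadjusted p under 0.05 stood 0 of the 4 genes and 646 rows (6.45%), or 38 of 460 readable nuclear rows (8.26%). DESeq2 called 53 rows and limma-voom 1, none of the 4 among them. The levels of the groups overlapped for all 4 genes, while 393 of all rows (3.92%) and 19 readable nuclear rows (4.13%) had groups that did not overlap.

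Aldh1b1 was at nearly the same mean level in both genotypes. Its level was 457, 449, 311 and 326 CPM in Sost-/- replicates 1 to 4 and 438, 324, 420.3 and 367 CPM in SostPB/- replicates 1 to 4. In Sost-/- livers the values fell into a high pair and a low pair, and the SostPB/- livers spread over the same range. The means were 386 ± 77.8 CPM and 387 ± 51.8 CPM (SD, n = 4). The log2 fold change of SostPB/- over Sost-/- was 0.01 with a standard error of 0.18 and a 95% interval from -0.39 to 0.40 (edgeR adjusted p = 0.999). The sign of so small a difference was not stable, being negative under 7 of 18 other settings.

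Ptgr1, which acts on unsaturated aldehydes, had by far the fewest reads of the 4. It had 15.8, 19.7, 20.8 and 17.0 CPM in Sost-/- and 13.7, 18.4, 17.6 and 18.9 CPM in SostPB/- replicates 1 to 4. The lowest liver was SostPB/- replicate 1, and the other SostPB/- livers lay inside the Sost-/- range. The means were 18.3 ± 2.34 and 17.1 ± 2.32 CPM (SD, n = 4), which gave a log2 fold change of -0.10 with a standard error of 0.19 (adjusted p = 0.981 in edgeR). The 95% interval ran from -0.52 to 0.32 on the log2 scale. With SostPB/- replicate 1 left out the log2 fold change was -0.0043. A mean of 200.3 counts gives a counting error of about 7.07% per library, against 12.8% and 13.6% between the livers of each group (SD over mean).

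Txn1 differed more among the Sost-/- livers than between the genotypes. Levels were 274, 308, 543 and 400.3 CPM in Sost-/- and 364, 336, 313 and 378 CPM in SostPB/- replicates 1 to 4. The highest and the 2 lowest livers of all 8 were Sost-/-, and the SostPB/- livers lay between them. The means were 381 ± 120.0 and 348 ± 29.1 CPM (SD, n = 4), which gave a log2 fold change of -0.13 with a standard error of 0.21 and a 95% interval from -0.60 to 0.33 (adjusted p = 0.981 in edgeR). The lower mean of SostPB/- rested on 1 liver, since without Sost-/- replicate 3 the log2 fold change was 0.09.

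Ttpa had the most reads of the 4. Its level was 3533, 2689, 2141 and 2857 CPM in Sost-/- replicates 1 to 4 and 2314, 2456, 2805 and 2462 CPM in SostPB/- replicates 1 to 4. Both the highest and the lowest liver were Sost-/-, and all SostPB/- livers lay inside that range. The means were 2805 ± 573 and 2509 ± 209 CPM (SD, n = 4), which gave a log2 fold change of -0.16 with a standard error of 0.17 (adjusted p = 0.964 in edgeR). The 95% interval ran from -0.53 to 0.21 on the log2 scale. Without Sost-/- replicate 1, the highest liver, the log2 fold change was -0.03. With 30109 counts on average, counting error was 0.576% per library and the spread between livers set the precision.

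**Figure D2:**
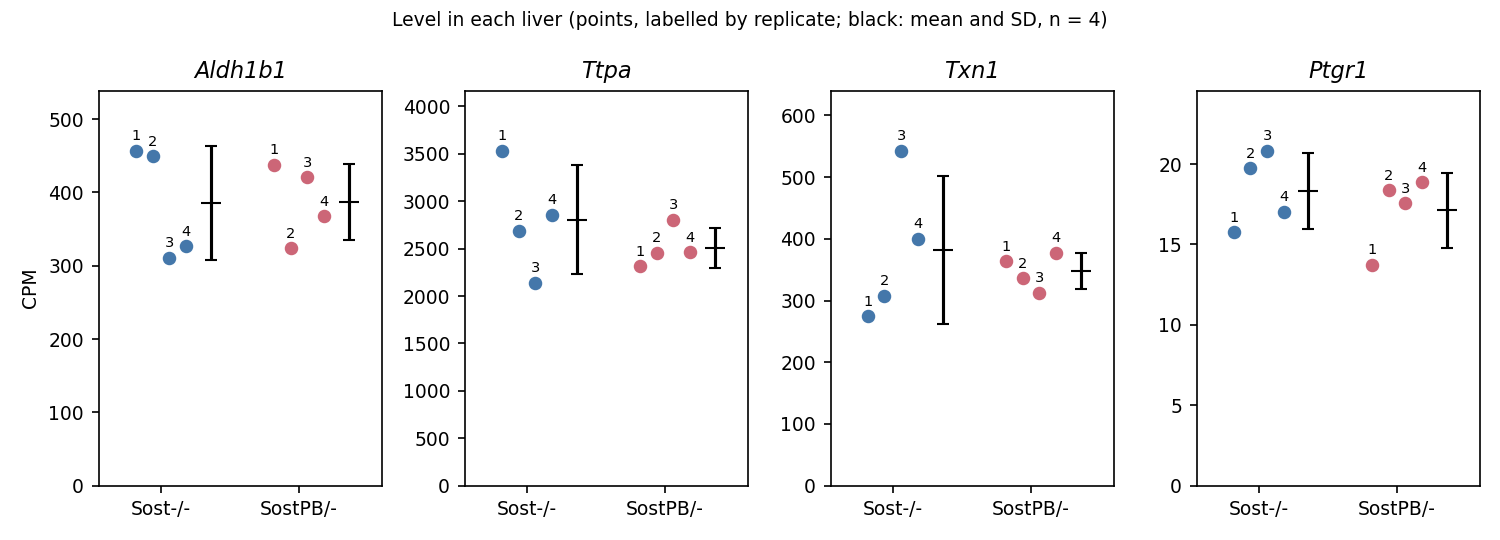
CPM of each gene in each liver (points, numbered by replicate, axes from 0), with mean and SD of the 4 livers of each group in black. The groups overlap for every gene, and Txn1 and Ttpa have a wider SD in Sost-/- (120.0 and 573 CPM) than in SostPB/- (29.1 and 209 CPM).

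Over the 4 genes the lowest bound of a 95% interval was -0.60 (Txn1) and the highest 0.40 (Aldh1b1) on the log2 scale, so the data do not show that the genotypes were alike in any of the 4. Total counts alone as the scaling gave log2 fold changes of -0.17 for Aldh1b1, -0.34 for Ttpa, -0.35 for Txn1 and -0.31 for Ptgr1. That scaling moved the median of all rows to -0.21, and relative to this median the 4 stood at 0.04, -0.14, -0.14 and -0.10. The edgeR adjusted p values under that scaling were 0.825, 0.609, 0.762 and 0.760.

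**Figure D3:**
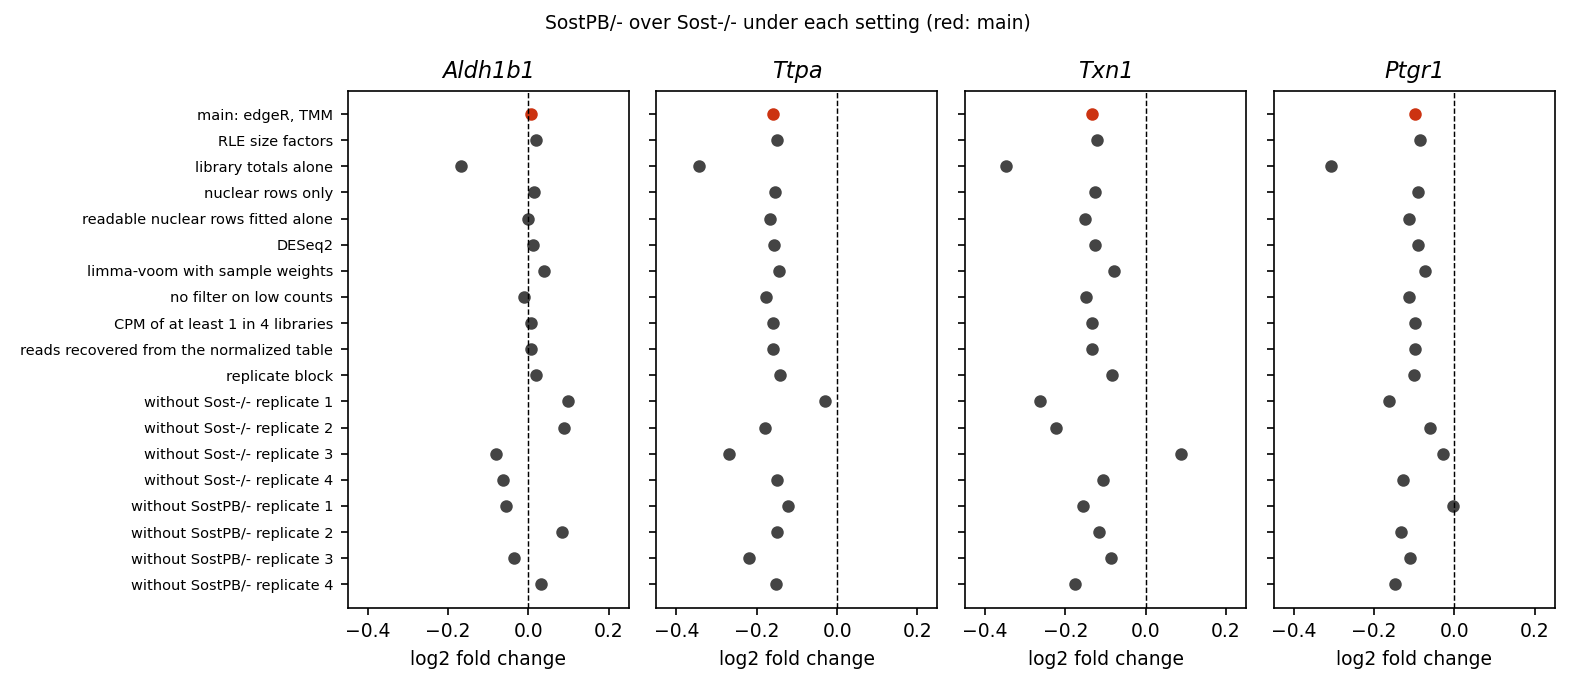
Log2 fold change of SostPB/- over Sost-/- for each gene under the main setting (red) and 18 others (dark points), with the dashed line at 0. Ttpa and Ptgr1 stay below 0 throughout; Aldh1b1 lies on both sides, and Txn1 crosses 0 only without Sost-/- replicate 3 (0.09).

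Other genes of the same pathways were taken from 3 lists of known antioxidant, aldehyde and vitamin E genes. Of their 136 genes, 10 had a readable row, the 4 and 6 more, and 0 of 10 passed the test in either direction. Their median log2 fold change was -0.05, beside -0.01 over all 10020 rows. The antioxidant list had 6 readable genes of 69, the aldehyde list 3 of 48 and the vitamin E list 2 of 21. The rows of the other 126 list genes lie outside the readable stretches. The paraoxonases Pon1, Pon2 and Pon3, which hydrolyse lactones and oxidised lipids, had log2 fold changes of 0.12 (SE 0.15), -0.10 (SE 0.13) and 0.0014 (SE 0.18). Hsdl2, a peroxisomal member of the short-chain dehydrogenase family, averaged 1260.1 CPM and 1249 CPM (log2 fold change -0.01, SE 0.16). The lipid exporter Abca1, which also carries vitamin E out of cells, had 804 and 811 CPM (log2 fold change 0.01, SE 0.22). Trp53inp1, a p53-induced stress protein with antioxidant action, was the 1 gene of the 10 with an unadjusted p under 0.05, at a log2 fold change of -0.91 (SE 0.35, edgeR adjusted p = 0.719). Of all rows tested 6.45% had such an unadjusted p, and of readable nuclear rows 8.26%, so 1 of 10 is near the background.

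**Figure D4:**
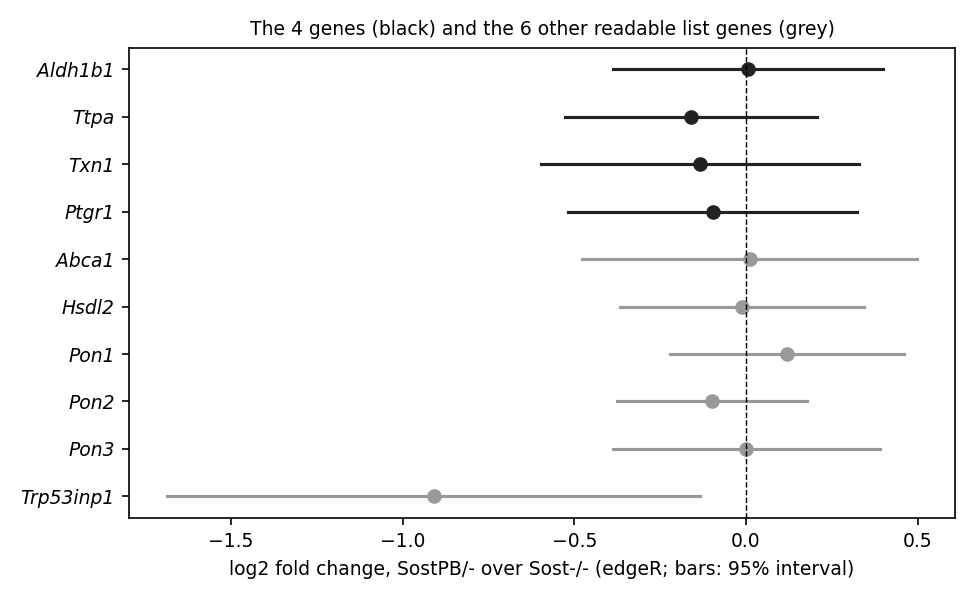
Log2 fold change of SostPB/- over Sost-/- with its 95% interval for the 4 genes (black) and the 6 other readable list genes (grey); the dashed line marks 0. The intervals of the 4 genes all include 0, and of the 10 only that of Trp53inp1 (-1.69 to -0.13) does not, at an adjusted p of 0.719 in edgeR. An unadjusted edgeR p under 0.05 was held by 8.26% of readable nuclear rows.

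Levels of different genes were compared per kilobase of exon, over all 8 libraries. Ttpa stood highest with 762 ± 123 CPM per kilobase, followed by Txn1 with 347 ± 78.8, Aldh1b1 with 168 ± 26.6 and Ptgr1 with 7.72 ± 0.982 (SD, n = 8). Per kilobase Ttpa was 2.22 times Txn1, Txn1 2.04 times Aldh1b1, and Aldh1b1 21.7 times Ptgr1 (geometric means). Per kilobase of coding length alone the order was the same, but these ratios were 2.78, 4.62 and 13.8, so their size depends on the length used. Each gene stood above the next in the order by exon length in 8 of 8 libraries. An exact two-sided sign-flip permutation test gave p = 0.00781 for each, and the same when adjusted over the 3 comparisons. That is the smallest value that 8 libraries can give. The order was taken from these same libraries, so the test is no independent support for it. Among 326 readable coding rows that averaged 50 counts or more, Ttpa ranked 4 and Txn1 11, Aldh1b1 31 and Ptgr1 235. Exon lengths are those of M21, which is not the release behind the counts. The deposited IDs carry higher version numbers than M21 does: Ttpa 14 against 13, Aldh1b1 6 against 5, Txn1 6 against 5 and Ptgr1 7 against 6. The lengths and these ratios may therefore differ under the annotation used for the counts.

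Across the 8 livers Txn1 ran opposite to Aldh1b1 and Ttpa, but no relation passed correction. For Txn1 and Aldh1b1 on log2 CPM, Pearson's r was -0.75 (exact permutation p = 0.0192, adjusted p = 0.192 over 10 relations) and Spearman's rho -0.81 (exact permutation p = 0.0218, adjusted p = 0.218). Without the livers farthest from the median of Aldh1b1, Sost-/- replicate 3 and SostPB/- replicate 2, r was -0.82 (exact permutation p = 0.0361, adjusted p = 0.361, n = 6). After subtraction of each group's mean it was -0.76. For Txn1 and Ttpa r was -0.75 (exact permutation p = 0.0386, adjusted p = 0.193) and rho -0.55 (exact permutation p = 0.171, adjusted p = 0.427). Without the livers farthest from the median of Ttpa, Sost-/- replicates 1 and 3, r was -0.15 (exact permutation p = 0.763, adjusted p = 0.771, n = 6). With each group's mean subtracted and all 8 livers kept, r was -0.86. Different livers were left out for each pair, so these checks do not show which of the relations is firmer. The other 8 relations had exact permutation p values from 0.110 to 0.642 for r, among them Aldh1b1 with Ttpa (r = 0.51, rho = 0.55). Txn1 was lower where mitochondrial rows took more of the counts (r = -0.60, rho = -0.67, exact permutation p = 0.110 and 0.0831, adjusted p = 0.367 and 0.415), and the part of this in the pair relations was not tested. Ptgr1 gave r of -0.50 with Aldh1b1, -0.30 with Ttpa and 0.39 with Txn1.

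**Figure D5:**
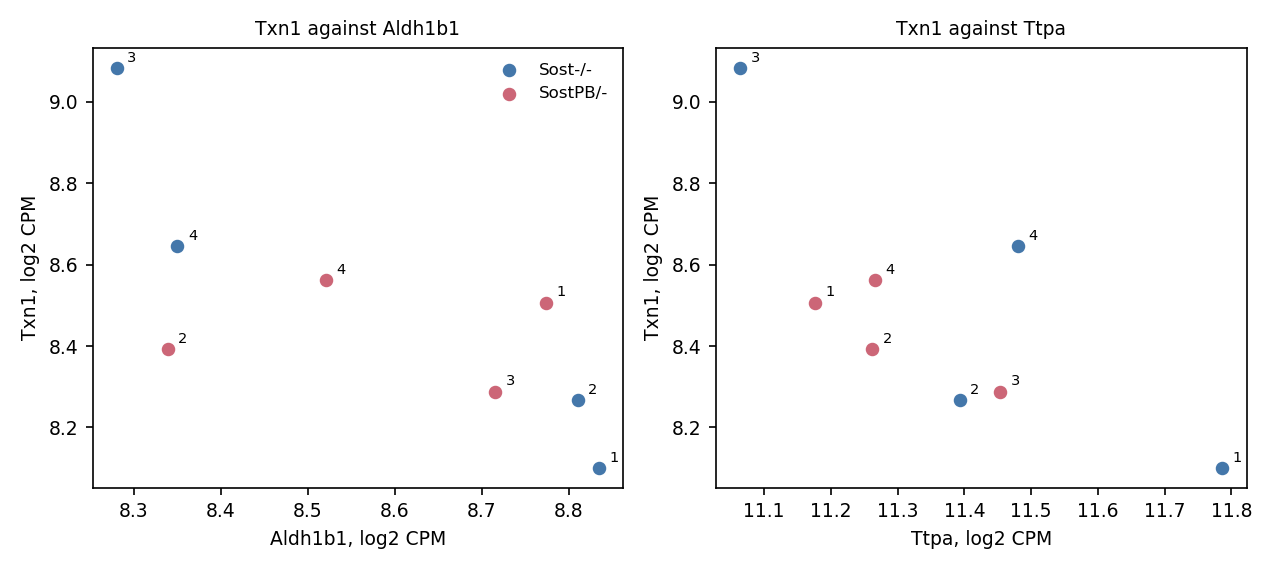
Log2 CPM of Txn1 against Aldh1b1 (left) and Ttpa (right) in 8 livers, coloured by genotype and numbered by replicate; both axes are log2 scales. Pearson's r was -0.75 with Aldh1b1 and -0.75 with Ttpa. Neither relation passed correction over 10 relations (exact permutation test, adjusted p = 0.192 and 0.193). Without Sost-/- replicates 1 and 3, r with Ttpa was -0.15.

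The readable genes whose log2 CPM ran most like each of the 4 are given as a description over 8 libraries, from 320 coding rows compared. For Aldh1b1 they were Cep41 (r = 0.82), Snx30 (r = 0.80) and Ube2r2 (r = 0.80). For Ttpa they were the splicing factor Prpf4 (r = 0.88), the mitochondrial aspartate and glutamate carrier Slc25a13 (r = 0.87) and the RNA-binding protein Ptbp3 (r = 0.86). For Txn1 they were the tropomyosin gene Tpm2 (r = 0.88), Trmo (r = 0.86) and Akirin2 (r = 0.83). For Ptgr1 they were Unc13b (r = 0.86), the lysophosphatidic acid receptor Lpar1 (r = 0.82) and Mdn1 (r = 0.76). All values share the same 8 libraries and scaling factors, and with so many rows and few libraries values of this size carry little weight.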

How the data were processed

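Poly-A RNA from 8 livers was sequenced, and HISAT2, StringTie, DESeq2 and mm10 are named in the submitters' processing notes with no version or role. The annotation release, strand setting and filters are not named in the sources used here. The deposited IDs of the genes followed carry higher version numbers than those of M21. The authors deposited whole-number counts per gene row, with 9578086 to 14932773 counts per library. They also deposited a normalized signal for 22883 rows, which equals those counts over 1 size factor per library (0.782 to 1.24). After multiplication 100% of its values were whole within 0.01, and edgeR called 0 rows on these reads.

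Counts were tested over the whole table with edgeR 4.0.16 in R 4.3.3 (filterByExpr, TMM, glmQLFit and glmQLFTest, Benjamini-Hochberg at 0.05). Standard errors are the log2 fold change over the square root of F, and 95% intervals use the test's degrees of freedom. DESeq2 1.42.0, limma 3.58.1 with voom, other scalings and filters, a replicate block and single libraries left out served as alternatives. Readable rows are those between named end genes on chromosomes 4, 6 and 15 (831, 314 and 288 rows), placed by ID in GENCODE M21. These stretches, the genes and the lists were chosen with earlier results of these data known. The genes named are the 4, the coding genes beside them, readable list genes and, for each of the 4, the 3 readable coding rows (mean of at least 50 counts) with the highest r. The scripts were tested on simulated counts. Whether the replicate numbers pair livers is not stated in the labels, so the main test used no block. The labels call the samples biological replicates and name no mice, so p values measure the spread between these samples. One marker gene is not reported here.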

Additional observations from a re-analysis of the deposited data

Results flagged for a closer look

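In 24 sets of 4 values, the distance of the highest or lowest liver from its closest neighbour was set against the whole range of its group, a check by which chance picks out about 1 set in 20. In total counts, Sost-/- replicate 1 stood high with 14932773 against 9919069 to 10554376 in the other Sost-/- libraries. SostPB/- replicate 2 stood high with 14613316 against 9578086 to 10412498 in its group. No set of the 4 genes stood out in this way.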

How the results depend on the processing

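None of the 4 genes passed edgeR, DESeq2 or limma-voom under any of the 18 settings (lowest adjusted p = 0.609, Ttpa with library totals alone). Ttpa and Ptgr1 stayed lower in SostPB/- under all 18. Aldh1b1 turned negative with library totals alone (-0.17), in readable rows fitted alone (-0.00074) and with no filter on low counts (-0.012). Leaving out each library in turn gave -0.082 to 0.098 for Aldh1b1, negative without Sost-/- replicate 3 or 4 or SostPB/- replicate 1 or 3. It gave -0.27 to -0.03 for Ttpa, -0.26 to 0.087 for Txn1 and -0.16 to -0.0043 for Ptgr1, and it called 0 to 4 rows in all, 0 to 1 readable rows and 0 list rows. Over all rows DESeq2 called 53, limma-voom 1 and edgeR with no filter 2, and DESeq2 called 4 readable rows. The causes of these differences were not tested. With replicate number as a block the log2 fold changes were 0.02 (Aldh1b1), -0.14 (Ttpa), -0.08 (Txn1) and -0.10 (Ptgr1) with 0 rows called. Deviations of same-numbered livers correlated at -0.04 to 0.04, and 1 of 4 Sost-/- livers correlated best with its own number, so the block result stands for a shared number only. Without the 2 libraries farthest from the median of the first-named gene, r turned to 0.43 for Ttpa with Ptgr1 and to -0.37 for Txn1 with Ptgr1. Per kilobase of coding length the levels were 3186 (Ttpa), 1157 (Txn1), 248 (Aldh1b1) and 17.97 CPM (Ptgr1), in the same order. They were higher than those per kilobase of exon, since coding length leaves out the untranslated parts.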

Other observations

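The Sost-/- livers differed more from each other than the SostPB/- livers in 3 of the 4 genes. The SD over the mean was 31.5% against 8.36% for Txn1, 20.4% against 8.32% for Ttpa and 20.2% against 13.4% for Aldh1b1, while Ptgr1 had 12.8% against 13.6%. Of 326 readable coding rows, 180 (55.2%) varied more in Sost-/-, with medians of 17.8% and 16.5%. In 51 rows (15.6%), Txn1 and Ttpa among them, the Sost-/- value was at least 2 times that of SostPB/-. With 4 livers in each group, this difference in spread was seen in the data and was not tested.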
